A study of Mus musculus with 12 samples.

Results

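The 42 genes described here are interferon-stimulated antiviral effectors outside the Ifit, Oas, Gbp, IRG, Schlafen and PYHIN families. They were taken by symbol from the 41388 Ensembl gene IDs in each deposited table, and all 42 were found. RNA was sequenced from mouse peritoneal macrophages collected on day 4 after thioglycolate, an irritant that draws monocytes into the abdominal cavity. Control cells came from LysM-Cre mice, and the second genotype, LysM-PPARg, is labelled a PPARγ knockout. LysM is a promoter active in macrophages and neutrophils, so a Cre under it acts in both. Cells of each genotype received vehicle (BSA-PBS) or 250 uM palmitate with 100 ng/ml LPS for 8 h, which gave 4 groups of 3 libraries. No label gives the strain, age or sex of the mice, or says whether replicates came from separate animals. P-values therefore measure the spread between libraries, which may be technical.

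Type I interferons bind the receptor IFNAR and activate the kinases JAK1 and TYK2. These phosphorylate STAT proteins, which join IRF9 and bind interferon-stimulated response elements in target promoters. The target genes make proteins that act at each stage of a viral life cycle, from entry and genome synthesis to translation and budding. In macrophages, LPS starts this programme through TLR4 and TRIF, which induce interferon beta through IRF3. PPARγ, encoded by Pparg, is a fatty acid-activated nuclear receptor that drives lipid-handling genes and dampens inflammatory transcription in macrophages.

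RefSeq promoter windows on GRCm38.p6, from 250 bases before to 50 after the annotated start, matched 34 of the 42 effectors, with 45 windows in all. The core of the interferon-stimulated response element, GAAANNGAAA on either strand, was present for 13 of these 34 effectors (38.2%), against 3.99% of 27025 genes. The gamma-activated site TTCNNNGAA was present for 8 of 34 (23.5%) against 9.55% of genes. In 3 cases a core match overlapped such a site. A kappaB site was present for 2 of 34 (5.88%) against 5.14% of genes. Below are the 250 bases before the start for the 4 effectors with a core that responded most to palmitate+LPS in controls, 5′ to 3′ on the gene's strand. Capitals mark the core or, as in Rsad2, its reverse complement.
Isg15 (chr4:156200819-156201068, minus strand): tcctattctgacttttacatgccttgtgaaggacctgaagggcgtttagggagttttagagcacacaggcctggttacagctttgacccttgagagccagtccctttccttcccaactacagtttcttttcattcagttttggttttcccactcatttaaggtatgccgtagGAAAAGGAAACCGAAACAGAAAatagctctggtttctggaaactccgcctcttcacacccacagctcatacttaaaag
Rsad2 (chr12:26456453-26456702, minus strand): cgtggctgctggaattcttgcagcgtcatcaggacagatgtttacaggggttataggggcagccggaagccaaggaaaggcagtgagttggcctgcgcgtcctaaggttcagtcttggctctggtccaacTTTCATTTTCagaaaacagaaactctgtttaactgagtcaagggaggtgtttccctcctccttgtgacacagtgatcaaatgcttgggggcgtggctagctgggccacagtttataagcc
Ddx60 (chr8:61927837-61928086, plus strand): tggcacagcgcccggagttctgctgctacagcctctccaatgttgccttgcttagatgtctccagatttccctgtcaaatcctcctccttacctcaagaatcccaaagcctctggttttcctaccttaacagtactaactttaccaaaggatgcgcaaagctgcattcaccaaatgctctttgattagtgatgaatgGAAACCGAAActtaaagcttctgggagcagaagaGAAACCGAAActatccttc
Phf11b (chr14:59341331-59341580, minus strand): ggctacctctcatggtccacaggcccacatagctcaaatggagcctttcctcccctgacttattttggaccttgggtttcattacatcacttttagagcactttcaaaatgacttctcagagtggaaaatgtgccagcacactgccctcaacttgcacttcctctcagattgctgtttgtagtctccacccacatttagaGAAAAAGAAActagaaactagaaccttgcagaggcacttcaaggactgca

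Isg15 carried 3 overlapping core matches in 1 run, Ddx60 carried 2 separate copies with the same letters, and Rsad2 and Phf11b carried 1 each. The other 9 effectors with a core are shown as stretches of 30 bases around a match, to let the letters be compared across genes. Capitals at the very end of the Ifitm3 stretch open a second match that runs past the bases shown.
Apobec3 (chr15:79892258-79892287): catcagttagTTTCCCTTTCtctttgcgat
Bst2 (chr8:71537583-71537612): ggcattccagGAAAATGAAACTGAAAggct
Eif2ak2 (chr17:78882535-78882564): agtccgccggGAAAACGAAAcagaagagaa
Ifitm3 (chr7:141010723-141010752): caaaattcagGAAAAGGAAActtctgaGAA
Lgals9 (chr11:78984960-78984989): tgacatcagcTTTCTTTTTCtctagacact
Parp11 (chr6:127446786-127446815): ttccttttagTTTCGATTTCttggaacccg
Trim21 (chr7:102565450-102565479): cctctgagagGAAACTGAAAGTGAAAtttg
Trim30a (chr7:104465210-104465239): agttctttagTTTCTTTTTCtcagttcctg
Trim30d (chr7:104507871-104507900): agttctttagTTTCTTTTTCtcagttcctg
Trim30a and Trim30d, neighbouring genes of 1 family, had the same 30 bases here. The median log2 response to palmitate+LPS in controls was 3.86 for the 13 effectors with a core and 3.72 for the 21 without. The median genotype difference under palmitate+LPS was 0.41 with a core and 0.61 without. That difference also moved with exon length, as given below, and a link to the core was not tested. A match is only a run of letters, and elements beyond the window were not searched.

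The libraries held 17960457 to 22696385 counts each. Pparg, the gene that should be lost, was not lower where its loss is labelled. It stood at 61.0 to 62.3 TMM-normalised CPM, counts scaled to library size, in vehicle controls and at 91.0 to 111 in vehicle libraries labelled knockout, a log2 difference of 0.69 ± 0.11 (SE, n = 3 per group, edgeR quasi-likelihood test, adjusted p = 0.00124). Under palmitate+LPS it was at 2.86 to 4.14 and 3.59 to 5.04 (adjusted p = 0.177). A count over the whole gene cannot show whether part of it was deleted, so the second genotype is called "labelled knockout" throughout, and every direction between genotypes rests on that label. Vehicle replicate 1 labelled knockout stood apart on the second principal component, at 30.61 against -7.99 and -10.42 for the other 2 of its group. With genes cut into 5 equal bins by exon length, the shortest bin in that library ran 0.29 (median log2) above the other 2 libraries of its group, and the longest bin stood at -0.21. Summed macrophage markers lay at 6150 to 8900 CPM over all libraries, with 9 of 9 markers passing the low-count filter. Summed fibroblast and mesothelial markers were at 119 to 139 CPM in vehicle controls and 153 to 198 in vehicle labelled knockout, where 0 of the 11 tested were called. Under palmitate+LPS the sums were 145 to 168 CPM in controls and 200 to 350 in libraries labelled knockout. Summed neutrophil markers were at 88.3 to 90.9 CPM in vehicle controls and 117 to 120 in vehicle labelled knockout, and at 123 to 135 and 154 to 192 under palmitate+LPS. Of the 5 tested, Cxcr2 and Mmp8 were higher in vehicle libraries labelled knockout (1.54 ± 0.38 and 1.42 ± 0.13). Mmp9 was lower there (-0.83 ± 0.16). Under palmitate+LPS Csf3r and Mmp8 were higher in libraries labelled knockout (0.59 ± 0.09 and 1.18 ± 0.16) and S100a8 was lower (-1.11 ± 0.17), with a median of -0.20 over the 5 of 7 tested and Ly6g at 0 counts in all libraries. Plasmacytoid dendritic cell markers summed to 1120 to 1400 and 1540 to 1610 CPM under palmitate+LPS, a list that holds the effector Bst2; of the 4 of 6 tested, Tcf4 was higher (0.35 ± 0.09). The mean of Siglech was at most 0.0567 CPM in each group. B cell markers reached at most 52.2, mast cell markers 10.4, dendritic cell markers 9.76, eosinophil markers 8.54, T and NK cell markers 1.39 and erythroid markers 0.261 CPM. In bulk RNA, fewer cells of a type and less RNA per cell cannot be told apart.

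The first comparison asked how the effectors responded to palmitate+LPS. All 42 rose in both genotypes (edgeR quasi-likelihood test, Benjamini-Hochberg adjusted over 12914 genes). Over all genes tested, 32.0% were higher and 34.7% lower in controls, and 33.7% and 35.6% in libraries labelled knockout. The median log2 response was 3.84 in controls, from 1.86 to 7.96, and 4.25 in libraries labelled knockout, from 2.32 to 8.45. In controls 32 effectors rose by over 8-fold. The share of all genes past that fold is not given here, and the median response over all genes in controls was -0.05. The 42 genes together took 0.202% to 0.203% of all counts in vehicle controls and 2.78% to 2.98% after palmitate+LPS. In libraries labelled knockout they took 0.21% to 0.221% in vehicle and 3.66% to 3.79% after palmitate+LPS. For every one of the 42, the group with the highest mean was palmitate+LPS labelled knockout.

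**Figure D1:**
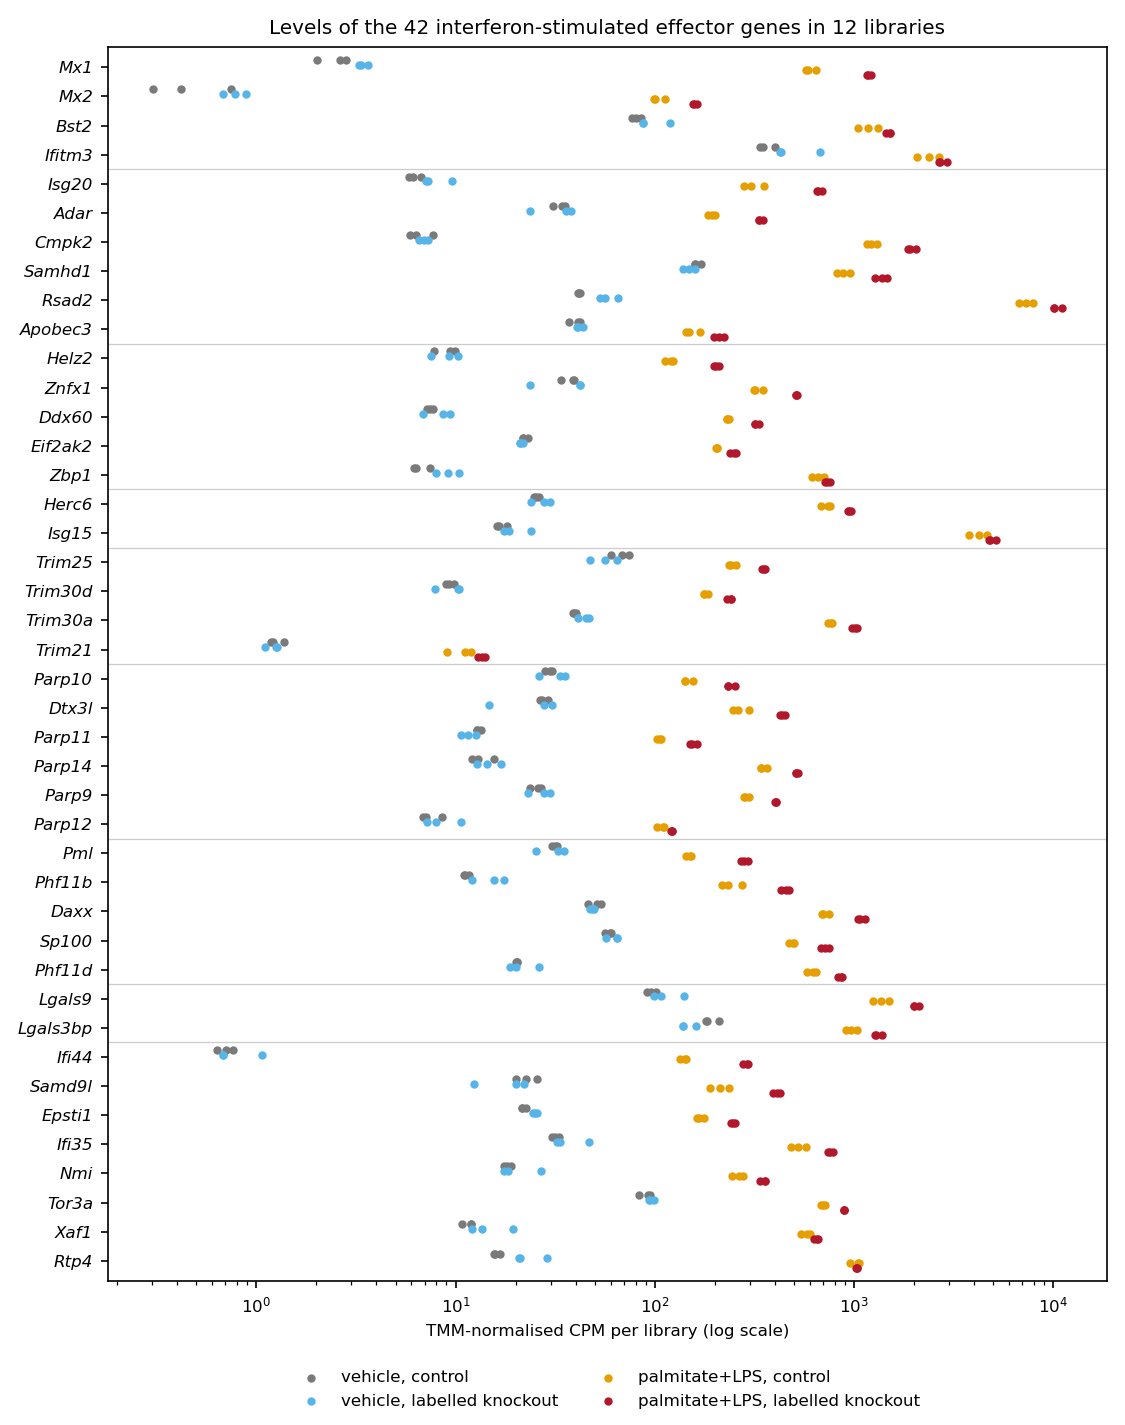
TMM-normalised CPM of each effector (rows, grouped by role) in the 12 libraries, on a log axis, with 1 point per library. The 2 palmitate+LPS groups lie right of the 2 vehicle groups for every gene, for example Ifi44 at 0.635 to 0.766 in vehicle controls and 134 to 144 in palmitate+LPS controls.

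The largest responses in controls were those of Isg15, a ubiquitin-like protein joined to other proteins and secreted (7.96 ± 0.11, 249-fold), and Mx1, a dynamin-like GTPase that traps viral nucleoproteins (7.92 ± 0.11, 243-fold). Mx2, its paralogue, rose by 7.66 ± 0.22 and Ifi44, a protein linked to arrest of cell growth, by 7.63 ± 0.16. Cmpk2, a mitochondrial nucleotide kinase, rose by 7.52 ± 0.10 and Rsad2 (viperin), which makes a chain-terminating nucleotide, by 7.45 ± 0.09. Rsad2 and Cmpk2 lie 12.8 kb apart on chromosome 12. The smallest responses were those of Trim25, a ubiquitin ligase that activates the RNA sensor RIG-I (1.86 ± 0.10), Apobec3, a cytidine deaminase that mutates retroviral DNA (1.93 ± 0.08), and Pml, the scaffold of nuclear bodies (2.25 ± 0.10). On a per-length scale (mean RPKM in palmitate+LPS controls), Isg15 was the most abundant at 5580, followed by Ifitm3 at 3500, Rsad2 at 1690 and Bst2 at 1550, while Helz2 stood at 10.4 and Trim21 at 3.87.

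The second comparison was of the genotypes in vehicle, that is, the resting level of the effectors. Here 3 of 42 passed the test as higher and 1 as lower, against 2.11% and 1.69% of all genes. The median difference was 0.11 on the log2 scale, from -0.39 to 0.61, against 0.01 over all genes. For 11 effectors each labelled knockout library was above each control, which held for 10.5% of all genes, for 3 it was below, against 9.27% of all genes, and for 28 the groups overlapped. At an unadjusted p of 0.05, 15 effectors differed, against 16.0% of all genes in either direction.

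Rsad2 had 41.2, 41.6 and 42.3 CPM in vehicle controls and 65.3, 52.8 and 56.3 in vehicle libraries labelled knockout. Rtp4, a chaperone of membrane receptors that also binds viral RNA complexes, had 15.6, 15.8 and 16.8 CPM in controls and 28.7, 20.7 and 21.1 in libraries labelled knockout. Zbp1, a sensor of left-handed nucleic acids that triggers necroptosis, had 6.35, 6.20 and 7.47 against 10.4, 9.12 and 7.96 CPM. In all 3 genes the groups did not overlap, and for each of them replicate 1 labelled knockout was the highest. The log2 differences were 0.48 ± 0.09 (Rsad2, adjusted p = 0.00557), 0.54 ± 0.11 (Rtp4, 0.00954) and 0.46 ± 0.11 (Zbp1, 0.0327), by edgeR's quasi-likelihood test. Lgals3bp, a secreted glycoprotein that binds galectins, was lower, with 181, 182 and 209 CPM in controls and 161, 138 and 139 in libraries labelled knockout (-0.39 ± 0.09, adjusted p = 0.0183). With vehicle replicate 1 labelled knockout left out, these 4 calls were kept and Trim30a was added as higher. Over all genes 3.28% were then higher and 2.72% lower. With only the 2 vehicle groups in the fit, none of the 42 passed, against 0.918% higher and 0.926% lower over all genes.

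**Figure D2:**
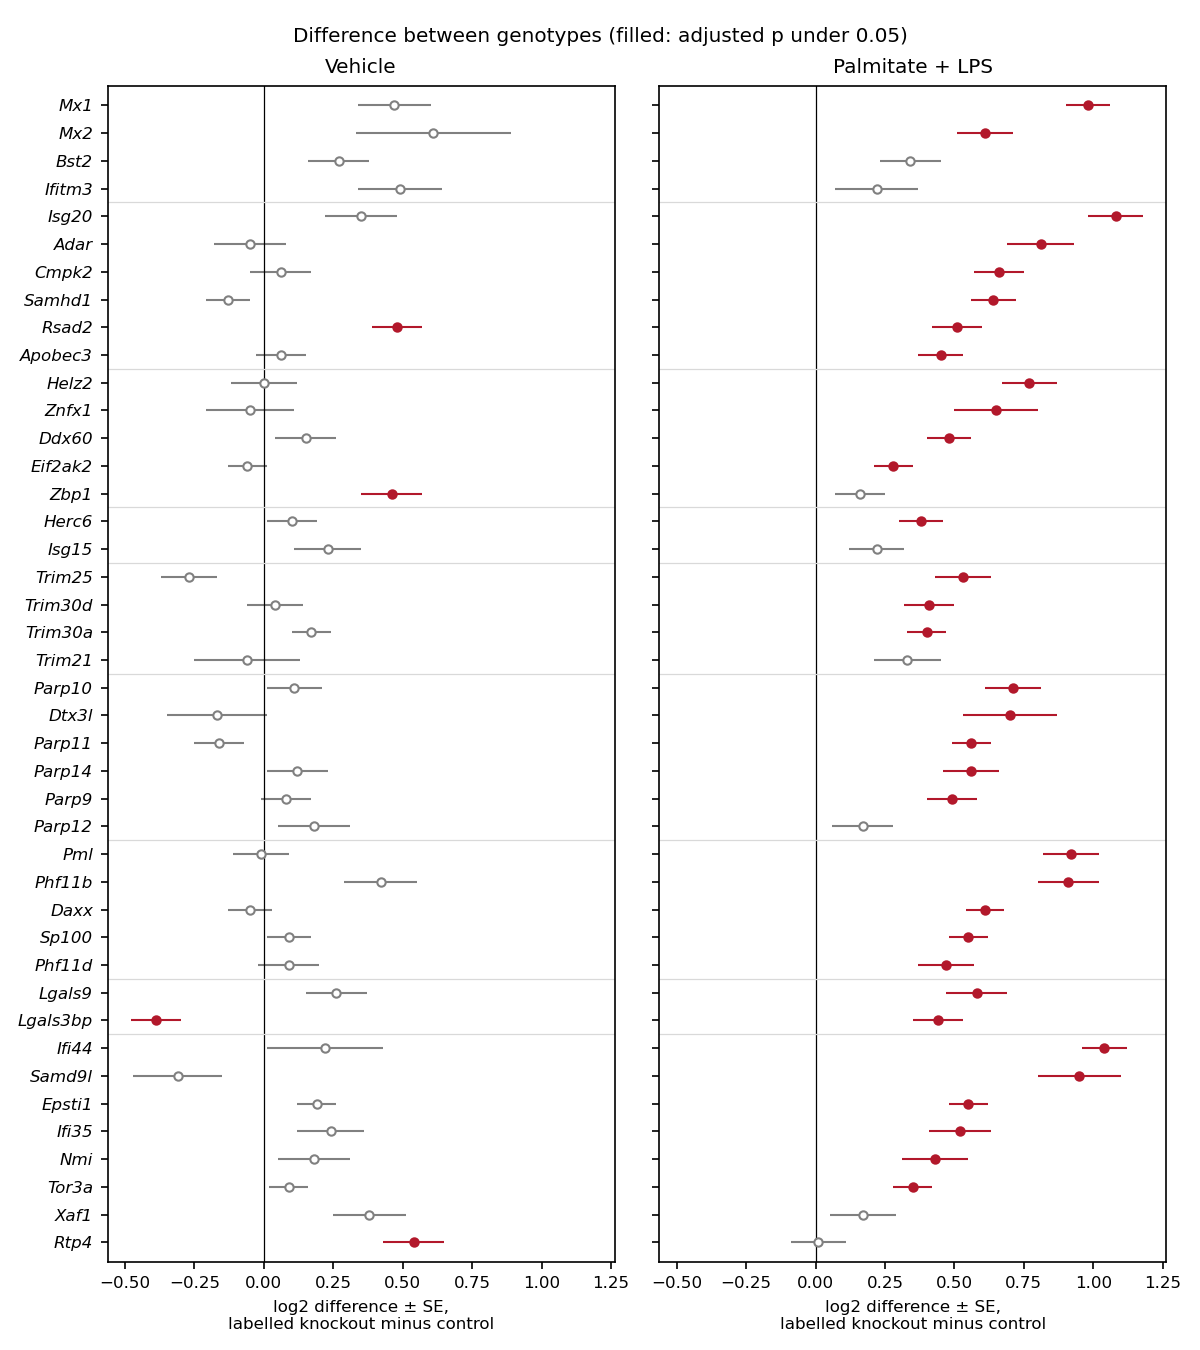
Log2 difference between genotypes (labelled knockout minus control, horizontal axis) for each effector in vehicle (left) and under palmitate+LPS (right), with standard errors, from 3 libraries per group. Filled points passed an adjusted p of 0.05: 3 higher and 1 lower in vehicle, 34 higher under palmitate+LPS.

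The third comparison was of the genotypes under palmitate+LPS. Of the 42 effectors 34 were higher in libraries labelled knockout and 0 were lower, against 10.0% and 6.1% of all genes tested. The median difference was 0.53 on the log2 scale, against -0.01 over all genes. By over 1.5-fold 15 effectors differed, a count whose share over all genes is not given here. Every estimate was above 0, from 0.01 to 1.08, so none was lower at an unadjusted p of 0.05 either. DESeq2 also gave 0 lower and 35 higher, against 6.45% and 11.1% of all genes. In 40 of 42 genes each labelled knockout library lay above each control, which held for 22.4% of all genes; Ifitm3 and Rtp4 overlapped. Fibroblast and mesothelial markers were higher for 6 of the 11 tested and lower for 0 in the same comparison. Of 5 mitochondrially encoded genes tested 1 was lower, with sums of 3900 to 4670 CPM in controls and 3270 to 3530 in libraries labelled knockout. The part of other cells and of RNA quality in the result was not tested.

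Among the membrane and GTPase effectors, 2 of 4 were higher. Mx1 (chromosome 16, 97447035 to 97462907) had 2.02, 2.64 and 2.83 CPM in vehicle controls, 3.35, 3.26 and 3.63 in vehicle labelled knockout, 588, 642 and 575 in palmitate+LPS controls and 1180, 1210 and 1160 in palmitate+LPS labelled knockout. It thus stood 1.97-fold higher in the stimulated labelled knockout libraries (0.98 ± 0.08, adjusted p = 1.83e-06), with a wide gap between the groups. Many inbred strains carry a defective Mx1 allele, and gene counts do not show which one is present. Mx2, which restricts viruses that multiply in the cytoplasm, had 0.747, 0.421 and 0.303 CPM in vehicle controls, 0.891, 0.677 and 0.783 in vehicle labelled knockout, 99.8, 113 and 99.2 in stimulated controls and 158, 163 and 155 in stimulated labelled knockout (0.61 ± 0.10). In vehicle its counts were 6 to 20 per library, and the groups overlapped. Ifitm3, which blocks fusion of viruses with endosomes, and Bst2 (tetherin), which holds budding virions at the cell surface, differed by 0.22 ± 0.15 and 0.34 ± 0.11 without passing the test (adjusted p = 0.348 and 0.0518).

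All 6 enzymes of nucleotides and nucleic acids were higher, by a median of 0.65. Isg20, an exonuclease of single-stranded RNA, showed the largest difference of the 42 effectors. It had 6.72, 6.12 and 5.81 CPM in vehicle controls, 9.59, 7.09 and 7.30 in vehicle labelled knockout, 281, 355 and 305 in stimulated controls and 656, 687 and 651 in stimulated labelled knockout (1.08 ± 0.10, 2.12-fold, adjusted p = 4.91e-06). Samhd1, which depletes the nucleotides needed for reverse transcription, had 160, 160 and 170 CPM in vehicle controls, 159, 149 and 139 in vehicle labelled knockout, 820, 950 and 877 in stimulated controls and 1460, 1280 and 1380 in stimulated labelled knockout (0.64 ± 0.08). The stimulated groups were apart for both genes. At rest Samhd1 differed by -0.13 ± 0.08, which did not pass (adjusted p = 0.454). Rsad2 rose to 6760, 7870 and 7280 CPM in controls and to 11000, 10100 and 10100 in libraries labelled knockout (0.51 ± 0.09), close to its difference in vehicle. Adar, the editor of adenosines in double-stranded RNA, differed by 0.81 ± 0.12, Cmpk2 by 0.66 ± 0.09 and Apobec3 by 0.45 ± 0.08.

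Of the 5 RNA sensors, helicases and translation inhibitors 4 were higher. Helz2, a helicase also described as a coactivator of PPAR receptors, had 9.37, 9.88 and 7.83 CPM in vehicle controls, 7.49, 9.24 and 10.3 in vehicle labelled knockout, 121, 124 and 113 in stimulated controls and 210, 203 and 198 in stimulated labelled knockout (0.77 ± 0.10). Ddx60, a helicase linked to RIG-I signalling whose promoter is printed above, had 7.69, 7.43 and 7.22 CPM in vehicle controls, 8.60, 9.39 and 6.89 in vehicle labelled knockout, 229, 235 and 231 in stimulated controls and 318, 319 and 333 in stimulated labelled knockout (0.48 ± 0.08). Both genes overlapped between genotypes in vehicle and were apart after palmitate+LPS. Znfx1, a helicase-type RNA sensor, differed by 0.65 ± 0.15 and Eif2ak2 (PKR), which shuts down translation on binding double-stranded RNA, by 0.28 ± 0.07. Zbp1 reached 614, 706 and 656 CPM in controls and 733, 760 and 712 in libraries labelled knockout, a difference of 0.16 ± 0.09 that did not pass (95% interval -0.03 to 0.35). Znfx1 overlaps Zfas1 on the opposite strand, and whether the counting used strand is not given in the sources used here, so reads of the shared part cannot be told apart.

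For ISG15 and the ligase that attaches it the picture was split. Herc6, the main ISG15 ligase of the mouse, had 25.4, 24.7 and 26.1 CPM in vehicle controls, 24, 29.8 and 27.9 in vehicle labelled knockout, 753, 684 and 744 in stimulated controls and 944, 930 and 970 in stimulated labelled knockout (0.38 ± 0.08, adjusted p = 0.00411). Isg15 itself had 16.1, 16.6 and 18.1 CPM in vehicle controls, 23.9, 17.4 and 18.5 in vehicle labelled knockout, 3780, 4650 and 4220 in stimulated controls and 5180, 4820 and 4730 in stimulated labelled knockout. Its stimulated groups did not overlap, but the difference of 0.22 ± 0.10 did not pass (adjusted p = 0.169).

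Of the 4 TRIM proteins 3 were higher. Trim30a, which restrains TLR signalling, had 38.7, 39.4 and 40.0 CPM in vehicle controls, 41.3, 46.7 and 45.1 in vehicle labelled knockout, 742, 772 and 762 in stimulated controls and 1030, 974 and 1010 in stimulated labelled knockout (0.40 ± 0.07). Trim25 had 73.8, 68.1 and 60.1 CPM in vehicle controls, 47.1, 56.1 and 64.4 in vehicle labelled knockout, 256, 241 and 235 in stimulated controls and 345, 359 and 355 in stimulated labelled knockout (0.53 ± 0.10). Trim30d differed by 0.41 ± 0.09, and Trim21, a receptor for antibody-coated virus in the cytosol, by 0.33 ± 0.12 without passing (adjusted p = 0.0725). Per length, Trim21 had the lowest level of the 42 after treatment, with mean RPKM of 3.87 and 4.85 in the 2 genotypes. Trim30a and Trim30d lie 4.8 kb apart and are alike in sequence, as are Phf11b with Phf11d and Mx1 with Mx2, so the split of reads within each pair is uncertain.

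Of the 6 genes made up of PARP family ADP-ribosyltransferases and Dtx3l, 5 were higher. Parp11 had 12.8, 13.4 and 12.8 CPM in vehicle controls, 10.6, 11.6 and 12.6 in vehicle labelled knockout, 106, 107 and 103 in stimulated controls and 153, 150 and 162 in stimulated labelled knockout (0.56 ± 0.07). Parp10 had 28.2, 30.3 and 29.9 CPM in vehicle controls, 26.2, 35.5 and 33.6 in vehicle labelled knockout, 141, 155 and 142 in stimulated controls and 253, 233 and 234 in stimulated labelled knockout (0.71 ± 0.10). Both were apart after treatment. In vehicle each Parp11 value was below the controls, and the difference did not pass (-0.16 ± 0.09, adjusted p = 0.366). Parp9 and Dtx3l, partners in a ubiquitin ligase complex, differed by 0.49 ± 0.09 and 0.70 ± 0.17; their genes overlap on opposite strands by 682 bases. Parp14 differed by 0.56 ± 0.10, while Parp12 did not pass (0.17 ± 0.11, 95% interval -0.06 to 0.40). Parp10 overlaps Plec and Parp9 overlaps Gm15564, which also makes their counts uncertain.

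All 5 nuclear body and PHD finger genes were higher, by a median of 0.61. Pml had 30.5, 31.6 and 32.1 CPM in vehicle controls, 25.2, 35.1 and 32.7 in vehicle labelled knockout, 152, 151 and 144 in stimulated controls and 293, 270 and 279 in stimulated labelled knockout (0.92 ± 0.10, 1.89-fold). Daxx, a histone chaperone that silences viral DNA in nuclear bodies, had 46.4, 51.4 and 53.7 CPM in vehicle controls, 47.4, 49.2 and 49.6 in vehicle labelled knockout, 691, 751 and 696 in stimulated controls and 1140, 1050 and 1070 in stimulated labelled knockout (0.61 ± 0.07). At rest both genes overlapped between genotypes, and after treatment neither did. Phf11b had 11, 11.1 and 11.7 CPM in vehicle controls, 17.5, 15.6 and 12.1 in vehicle labelled knockout, 217, 273 and 234 in stimulated controls and 471, 429 and 457 in stimulated labelled knockout (0.91 ± 0.11). Sp100, another component of nuclear bodies, differed by 0.55 ± 0.07 and Phf11d by 0.47 ± 0.10.

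Both galectin-related genes were higher. Lgals9, a secreted galectin, had 91.5, 95.7 and 101 CPM in vehicle controls, 140, 107 and 98.7 in vehicle labelled knockout, 1250, 1490 and 1360 in stimulated controls and 2110, 2000 and 2010 in stimulated labelled knockout (0.58 ± 0.11). Lgals3bp, which was lower in vehicle libraries labelled knockout, reached 913, 1030 and 961 CPM in controls and 1380, 1280 and 1290 in libraries labelled knockout (0.44 ± 0.09, adjusted p = 0.0024). It was the only effector called in opposite directions in the 2 genotype comparisons, and Rsad2 the only other called in both.

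Of the remaining 8 effectors 6 were higher. Ifi44 had 0.635, 0.766 and 0.707 CPM in vehicle controls, 0.681, 0.677 and 1.07 in vehicle labelled knockout, 144, 142 and 134 in stimulated controls and 278, 291 and 293 in stimulated labelled knockout (1.04 ± 0.08, 2.05-fold, adjusted p = 1.09e-06). Samd9l, a restrainer of growth and of poxvirus replication, had 25.5, 22.6 and 20.1 CPM in vehicle controls, 12.4, 22.0 and 20.2 in vehicle labelled knockout, 236, 189 and 213 in stimulated controls and 427, 393 and 411 in stimulated labelled knockout (0.95 ± 0.15). The low vehicle value of Samd9l belongs to replicate 1, the library that stood apart. Epsti1 had 21.6, 21.6 and 22.5 CPM in vehicle controls, 25.1, 24.4 and 25.6 in vehicle labelled knockout, 162, 177 and 167 in stimulated controls and 246, 240 and 253 in stimulated labelled knockout (0.55 ± 0.07). Ifi35 and Nmi, which bind each other, differed by 0.52 ± 0.11 and 0.43 ± 0.12, and Tor3a, a torsin ATPase, by 0.35 ± 0.07. Xaf1, an antagonist of the apoptosis inhibitor XIAP, did not pass (0.17 ± 0.12, 95% interval -0.07 to 0.42). Rtp4 reached 949, 1060 and 1050 CPM in controls and 1030, 1020 and 1030 in libraries labelled knockout, a difference of 0.01 ± 0.10 with a 95% interval from -0.20 to 0.22.

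The fourth comparison asked whether the response itself differed between genotypes, by the interaction of genotype and treatment. It uses the same 12 libraries as the comparisons above. The response was larger in libraries labelled knockout for 17 of 42 effectors and smaller for 1, against 4.7% and 3.35% of all genes tested. The median difference of responses was 0.39 on the log2 scale, from -0.53 to 1.26. Each of the 17 was also called higher under palmitate+LPS, and the other 17 effectors called there did not pass the interaction. The largest values were those of Samd9l (1.26 ± 0.22, adjusted p = 0.0033), Pml (0.93 ± 0.14, 0.00139), Dtx3l (0.87 ± 0.24, 0.0407), Adar (0.86 ± 0.18, 0.00971) and Lgals3bp (0.83 ± 0.12, 0.00121), by edgeR's quasi-likelihood test. Of the 6 nucleotide and nucleic acid enzymes 4 passed, of the 5 nuclear body and PHD finger genes 3, and of the 4 membrane and GTPase effectors 0.

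Rtp4 went the other way (-0.53 ± 0.15, adjusted p = 0.041): it was higher at rest in libraries labelled knockout and near the controls after treatment. This call was lost in 9 of 18 alternatives, 8 of them with a library left out. Rsad2 (0.03 ± 0.13), Isg15 (-0.01 ± 0.16) and Mx2 (0.01 ± 0.29) had differences of response near 0, with standard errors that leave room for changes of either sign. Mx1 missed the threshold (0.51 ± 0.16, adjusted p = 0.0569). With vehicle replicate 1 labelled knockout left out, 26 effectors had a larger response and 1 a smaller one. Over all genes tested the shares rose to 7.74% and 5.59% in that fit. Ifi44 then lost its call and 10 effectors gained one, Mx1, Parp9 and Parp14 among them. Without vehicle control replicate 2, palmitate+LPS control replicate 3 or palmitate+LPS labelled knockout replicate 1, the number with a larger response also moved by over 1.5 times, within a range of 10 to 26 over the libraries left out. Shares over all genes in those fits are not given here.

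**Figure D3:**
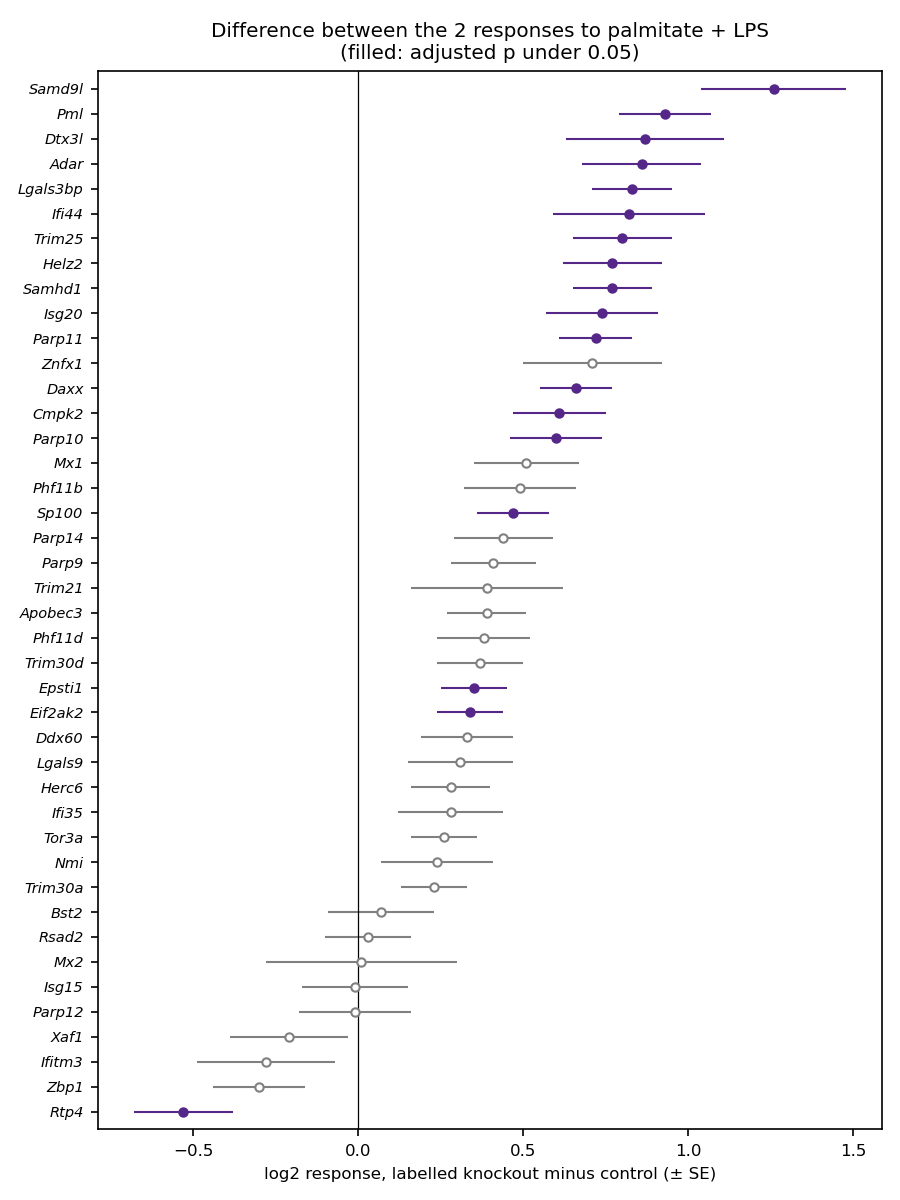
Log2 response to palmitate+LPS in libraries labelled knockout minus that in controls (horizontal axis) for each effector, ordered by size, with standard errors. Filled points passed an adjusted p of 0.05: 17 lie above 0, with Samd9l highest at 1.26, and Rtp4 lies below at -0.53.

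The genotype differences moved with the length of the gene. Over 12914 genes, Spearman's rho between exon length and the log2 difference was -0.18 in vehicle, 0.26 under palmitate+LPS and 0.31 for the interaction. Genes are not independent replicates, so these are descriptions. Over the 42 effectors the values were -0.54, 0.34 and 0.51. From the shortest to the longest of 5 equal bins of all genes, the median under palmitate+LPS went from -0.16 to 0.13 and the median interaction from -0.27 to 0.19. The effectors are 678 to 11529 bases long, with a median of 4301 against 3566 over all genes tested. Of the 5 shortest effectors, from 678 to 1573 bases, Phf11b was called under palmitate+LPS while Ifitm3, Bst2, Isg15 and Rtp4 were not. Samd9l, Adar and Helz2, with 5425, 6786 and 11529 bases, had interactions of 1.26, 0.86 and 0.77. Lgals3bp, with 2847 bases, had 0.83 and Isg20, with 1826, had 0.74. These are single genes, and the part of exon length in their values was not tested. After the length trend was taken out of each library, an alternative chosen after seeing the data, 38 effectors were higher and 0 lower under palmitate+LPS, with a median of 0.49. These included all 34 called without it, plus Bst2, Ifitm3, Isg15 and Trim21, against 11.1% higher and 6.83% lower over all genes. In the interaction 19 were then higher and 1 lower, with 15 of the 18 calls kept, against 5.24% higher and 4.33% lower over all genes. In vehicle 5 were higher and 1 lower, against 3.36% and 2.11% of all genes. The responses to treatment kept 42 of 42 in both genotypes.

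**Figure D4:**
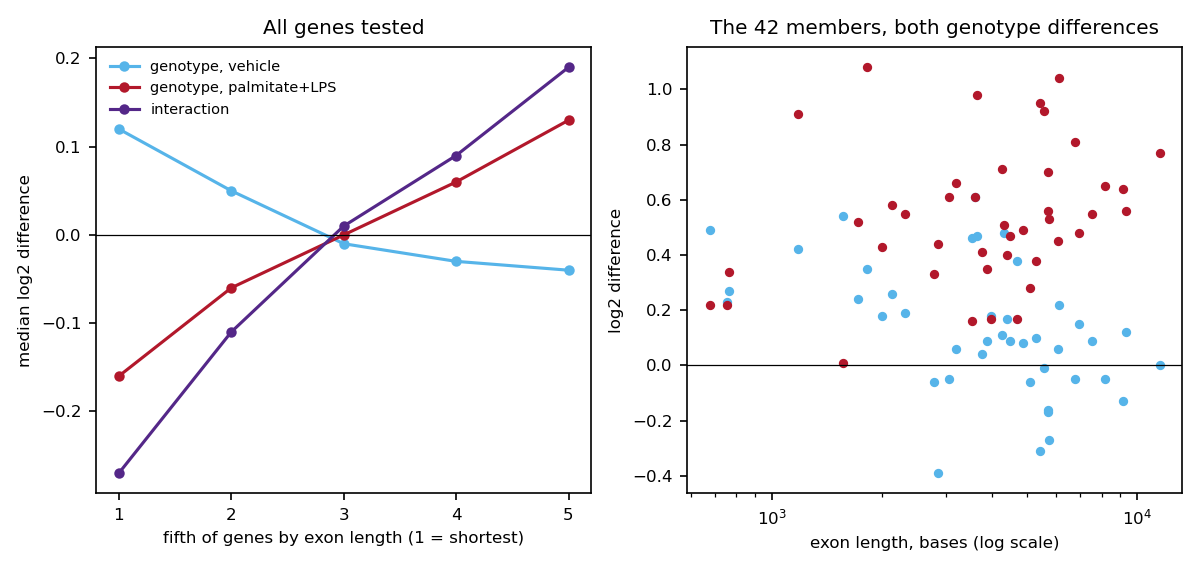
Left, median log2 difference over all genes tested in each of 5 equal bins of exon length, from the shortest (1) to the longest (5), for both genotype comparisons and the interaction. Right, the log2 genotype differences of the 42 effectors against exon length (log axis), in vehicle (blue) and under palmitate+LPS (red); the red points lie above 0 at every length.

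The genes upstream of the effectors were read from lists. Ifnb1, which encodes interferon beta, had 0, 1 and 0 counts in vehicle controls, 0 in each vehicle library labelled knockout, 7, 8 and 9 in stimulated controls and 23, 28 and 40 in stimulated libraries labelled knockout. It was higher in the latter by 1.96 on the log2 scale (edgeR, adjusted p = 0.00121). Ifnl2 and Ifnl3, the interferon lambda genes, had 0 counts in all libraries. Among the signal transducers, Stat2 (0.73 ± 0.14) and the receptor-bound kinase Tyk2 (0.66 ± 0.18) were higher in stimulated libraries labelled knockout. Irf9, the DNA-binding partner of the STAT proteins, did not pass (0.13 ± 0.07, adjusted p = 0.245). Of 6 interferon regulatory factors 3 were higher, Irf7 (0.63 ± 0.10), Irf5 (0.62 ± 0.07) and Irf2. Of 3 feedback inhibitors, Usp18, which removes ISG15 and blocks the receptor, was higher (0.61 ± 0.09) and Socs3 was lower (-0.50 ± 0.11). In vehicle Usp18 (0.52 ± 0.10), Irf7 (0.42 ± 0.11) and Irf1 (0.38 ± 0.09) were also higher in libraries labelled knockout.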

How the data were processed

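RNA-seq of 12 libraries in 4 groups of 3 was analysed. Titles put the libraries in groups. STAR 2.0.4b, featureCounts 1.45 (with Subread) and bcl2fastq 2.0 are the tools in the submitters' processing notes, and GRCm38 is the build. Their settings, the annotation release and whether counting used strand were not given in the sources used here. RNA was purified on Ambion columns and made into libraries with Clontech SMARTer v1, per the labels. The deposited tables hold raw counts per gene, CPM (counts per library total) and RPKM (CPM divided by exon length in kilobases), per the file headers. Only the deposited counts were used; CPM and RPKM in the text were recomputed from them with TMM factors and the deposited exon lengths. Gene symbols were found for 40254 of 41388 IDs.

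Genes with low counts were removed (filterByExpr by group), leaving 12914 genes with at least 99.92% of each library's counts; all 42 effectors passed. A single edgeR 4.0.16 model (R 4.3.3) with a mean for each group covered the 12 libraries, and contrasts were tested by robust quasi-likelihood. P-values were adjusted over all genes (Benjamini-Hochberg, threshold 0.05). Differences are log2 ± standard error. Depth was 17960457 to 22696385 counts per library; Mx2 in vehicle had only 6 to 20 counts, which limits its precision. Alternatives were other scaling, no filter, DESeq2 1.42.0, only the groups compared, a replicate block, each library left out and, added after seeing the data, removal of the exon length trend.

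The effectors, their roles and the gene lists were chosen with earlier results of these data known. Values per library are given for up to 2 effectors per role with the smallest p under palmitate+LPS, and up to 6 called in vehicle or in the interaction. A result on the signal transducers and the count over their list are not reported here.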

Additional observations from a re-analysis of the deposited data

Results flagged for a closer look

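The response to palmitate+LPS differed between the genotypes for 18 effectors by the interaction test of edgeR (adjusted p under 0.05 over 12914 genes). Values are the log2 response in libraries labelled knockout minus that in controls. The nucleic acid and nucleotide enzymes were Adar (0.86), Samhd1 (0.77), Isg20 (0.74) and Cmpk2 (0.61). The RNA helicase Helz2 stood at 0.77 and the translation inhibitor Eif2ak2 at 0.34. Dtx3l (0.87), Parp11 (0.72) and Parp10 (0.60) came from the ADP-ribosylation group, and Pml (0.93), Daxx (0.66) and Sp100 (0.47) from nuclear bodies. The others above 0 were Samd9l (1.26), Lgals3bp (0.83), Ifi44 (0.82), Trim25 (0.80) and Epsti1 (0.35), and Rtp4 was below 0 at -0.53. Of the 18, 9 kept their call in each of the 18 alternatives run, namely Lgals3bp, Pml, Samhd1, Parp11, Daxx, Samd9l, Trim25, Helz2 and Adar. The other 9 lost it in at least 1. Vehicle replicate 1 labelled knockout was the lowest of its group for Samd9l (12.4 CPM), Dtx3l (14.7) and Adar (23.7). It was the highest for Samhd1 (159 CPM, 9150 bases long), Lgals3bp (161) and Isg20 (9.59), which were also called. These are single genes, and the part of exon length in the calls was not tested. Leaving vehicle replicate 1 labelled knockout out kept 17 of the 18 calls (Ifi44 lost). Removing the exon length trend from each library kept 15 (Eif2ak2, Ifi44 and Sp100 lost).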

How the results depend on the processing

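No effector reversed the direction of a call in any alternative. All 42 rose with treatment in both genotypes in each of 19 alternatives. Outside the fits with a library left out, 16.9% to 37.2% of all genes tested were higher. Under palmitate+LPS the 34 higher effectors became 33 to 39 across settings and 32 to 40 with a library left out, and 31 kept their call in all; Dtx3l, Eif2ak2 and Nmi lost it in some. Over all genes, 6.26% to 17.9% were higher across those settings. The share was 17.1% without vehicle labelled knockout replicate 1, the fit that gave 40. In vehicle none of the 4 calls held in all 19. The 3 higher effectors there became 5 with the exon length trend removed, against 3.36% of all genes. The number was 7 without a filter on low counts (1.88% of all genes) and 0 with only the groups compared (0.918%). The 1 lower effector became 2 without the filter (2.0%) and 0 with only the groups compared (0.926%). Leaving out a library gave 1 to 5 higher (1 without vehicle control replicate 1 or 2, 5 without vehicle labelled knockout replicate 3) and 0 to 2 lower (0 without vehicle control replicate 3 or vehicle labelled knockout replicate 2, 2 without vehicle labelled knockout replicate 3). In the interaction, leaving out a library gave 10 to 26 higher (26 without vehicle labelled knockout replicate 1, 10 without vehicle control replicate 2 or palmitate+LPS control replicate 3, 11 without palmitate+LPS labelled knockout replicate 1). Without vehicle labelled knockout replicate 1, 7.74% of all genes were higher. Shares over all genes with another library left out are not given here. The number lower was 0 to 1, with Rtp4 lost in 8 of the 12 cases. The cause was not tested. Total-count scaling moved the median of all genes to -0.38 and -0.42 for the treatment responses in controls and labelled knockout, from -0.05 and -0.06, and the higher share of all calls from 62.1% to 34.8% under palmitate+LPS; the effectors' medians were then 3.5, 3.89 and 0.44.

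Correlations of deviations from group means ran from -0.274 to 0.052 between libraries with the same replicate number. Between libraries with different numbers they ran from -0.155 to 0.238. Trends across a library, such as that with exon length, also enter these values, so they cannot exclude pairing. With a replicate block the effectors were 2 higher and 0 lower in vehicle, against 1.53% and 1.18% of all genes. Under palmitate+LPS 34 were higher, against 7.7%. In the interaction 13 were higher and 0 lower, against 2.56% and 1.42%.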
